A study of Mus musculus with 6 samples.

Results

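The collagen genes of mouse skin wounds were followed on 6 Illumina bead arrays, taken 8 days after a full-thickness wound of dorsal skin. Members were all probes whose platform gene symbol is Col, a number, a and a number, which gave 91 of 45281 probes and 41 of 19057 named genes. RefSeq names 3 more genes of this form, Col6a3, Col12a1 and Col20a1, and they were not analysed here. All mice had a C57/BL6 background and carried floxed alleles of Ctnnb1, the gene of β-Catenin, the nuclear carrier of canonical Wnt signals. In the adenovirus experiment exon 3 was floxed on both alleles, loss of which gives a protein that escapes degradation. The wound given adenovirus with CRE is called stabilised here and the wound given adenovirus with GFP is its control, 1 array each, from mice aged 2 months. In the tamoxifen experiment exons 2 to 6 were floxed on both alleles and every mouse was given tamoxifen. The 2 knockdown mice also carried Cre-Esr1, and the 2 control mice did not. Replicate 1 of each tamoxifen group was aged 5 months and replicate 2 was aged 2 months, so replicate number and age go together. The sources used here name neither the promoter that drives Cre-Esr1 nor the wound cells that took up the adenovirus.

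Collagens are proteins of the extracellular matrix whose chains wind around each other into long helices. Fibrillar collagens form the tensile cables of dermis and scar, FACIT collagens sit on the surface of those fibrils, and type IV collagen builds the sheet-like network of basement membranes. Beaded filament, short-chain and anchoring fibril collagens link these structures to each other, and transmembrane collagens stay anchored in the cell surface. In a skin wound in its proliferative phase, fibroblasts are known to lay down fibrillar collagen, while keratinocytes and vessels rebuild their basement membranes.

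On an array, 33.6% to 36.8% of all probes had a detection p under 0.01, the limit used here for a detected probe. Values are the deposited log2 intensities, and the brightest probe stood for its gene. Precision is limited by how few arrays there are. Ctnnb1 read 11.93 and 11.86 on the knockdown arrays and 12.04 and 11.48 on their controls, on the brightest of 4 probes. The exon that this probe reads is unknown here, so these levels do not check the labels. Xist, transcribed from the inactive X chromosome, read 10.42 and 10.12 on the adenovirus arrays and 4.60 to 4.67 on the tamoxifen arrays, so the experiments also differed in sex. Of 12 fibroblast markers on the array 11 were detected on every array, and of 9 basal keratinocyte markers 8 were. Of 10 cartilage and bone markers 8 were detected on no array, among them Acan, the cartilage aggrecan.

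Of the 41 collagen genes, 27 were detected on at least 1 array (65.9%, against 55.6% of all named genes). Genes of cartilage collagen types were among the 14 that were detected nowhere: Col2a1, Col9a1, Col9a2, Col10a1, Col11a1 and Col11a2. The others were Col4a3, Col4a6, Col6a4, Col6a6, Col13a1, Col19a1, Col22a1 and Col25a1. Their probes, with further dim probes of detected genes, made 46 of the 91 and read 4.40 to 5.89. Col4a4, a chain of kidney basement membranes, was detected on 1 array only, at 6.10 on control replicate 1, and was left out of both comparisons. The 26 remaining genes entered each comparison, with 8 fibrillar, 3 FACIT, 3 basement membrane, 2 multiplexin, 3 beaded filament, 2 short-chain, 2 transmembrane, 1 anchoring fibril and 2 other genes. Of these, 22 were detected on all 6 arrays. Col6a5, Col8a2, Col26a1 and Col28a1 were each below detection on 1 array.

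**Figure D1:**
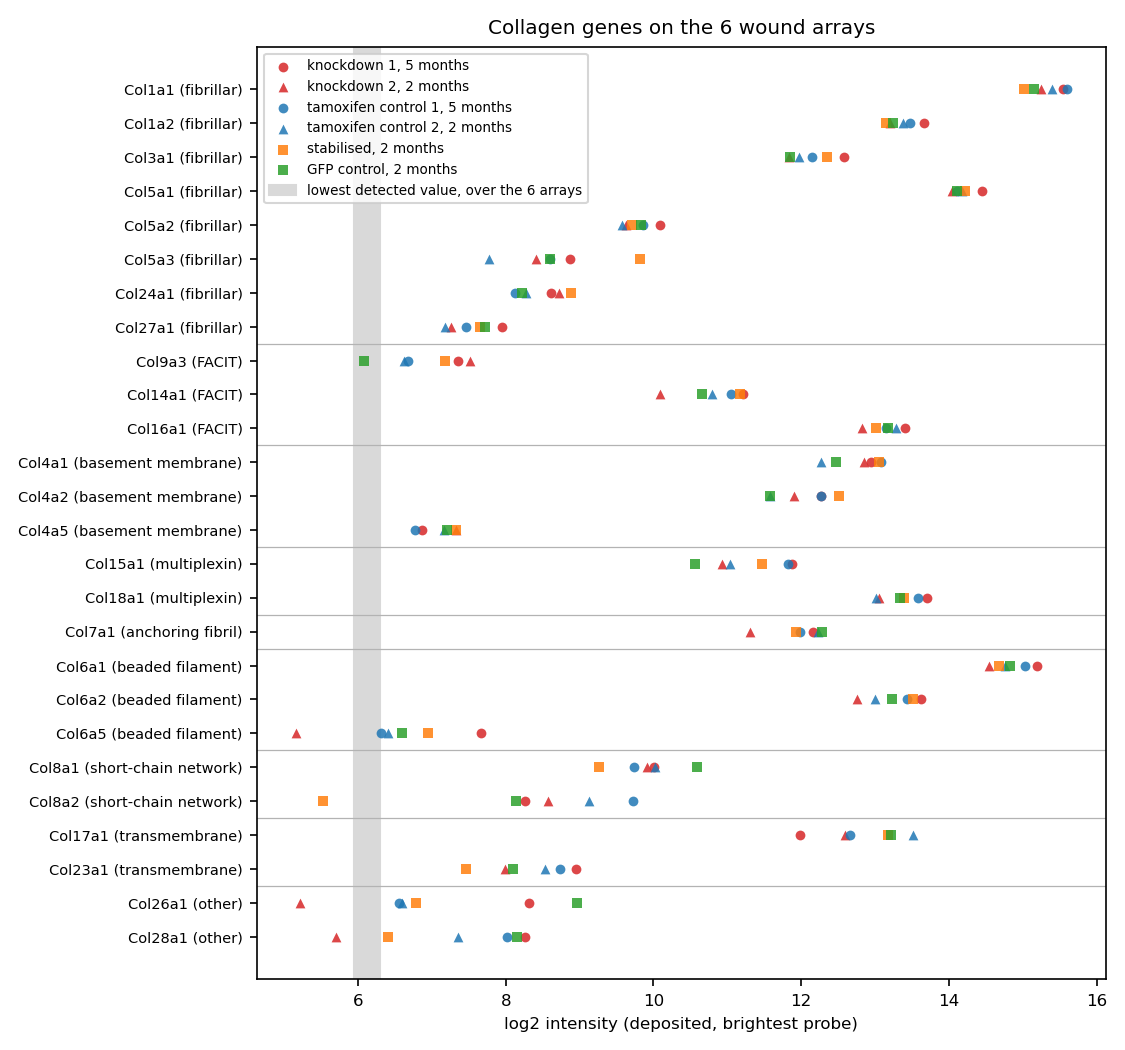
Each row is a collagen gene (class in brackets), the horizontal axis is the deposited log2 intensity of its brightest probe, and each point is 1 array. The grey band spans the lowest detected values of the 6 arrays, 5.95 to 6.30, and only Col6a5, Col8a2, Col26a1 and Col28a1 have points to the left of it.

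The sequences of 4 promoters are shown because Col17a1, Col8a2 and Col24a1 separated the knockdown from the control arrays and Col5a3 had the largest positive difference between the adenovirus arrays. The fourth gene that separated the tamoxifen groups was Col9a3. Each run is the 250 bases before the RefSeq start site, 5′ to 3′ on the gene's own strand, build GRCm38.p6. RefSeq promoters were found for 33 of the 41 members. Capitals mark TATAAA (the TATA box), CCAAT (bound by NF-Y), GGGCGG (an Sp1 box) and the letters of the Tcf/Lef motif, the site through which β-Catenin reaches DNA, on either strand. The Tcf/Lef motif was searched as CTTTGNN with A or T at each N.
Col17a1: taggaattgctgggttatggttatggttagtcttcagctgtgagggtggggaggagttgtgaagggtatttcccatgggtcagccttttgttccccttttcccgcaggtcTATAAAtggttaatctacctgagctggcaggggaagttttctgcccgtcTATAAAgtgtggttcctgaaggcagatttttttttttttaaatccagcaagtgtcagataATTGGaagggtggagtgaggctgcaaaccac
Col8a2: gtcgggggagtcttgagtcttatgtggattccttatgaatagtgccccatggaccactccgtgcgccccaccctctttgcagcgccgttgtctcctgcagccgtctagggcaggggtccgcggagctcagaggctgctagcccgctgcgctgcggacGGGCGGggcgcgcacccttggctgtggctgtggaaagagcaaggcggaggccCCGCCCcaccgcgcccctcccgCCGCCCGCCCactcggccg
Col24a1: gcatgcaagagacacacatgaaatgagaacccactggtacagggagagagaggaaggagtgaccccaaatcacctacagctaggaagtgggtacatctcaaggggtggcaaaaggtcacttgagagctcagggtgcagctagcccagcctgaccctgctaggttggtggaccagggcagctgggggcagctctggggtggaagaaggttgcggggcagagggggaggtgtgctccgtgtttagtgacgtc
Col5a3: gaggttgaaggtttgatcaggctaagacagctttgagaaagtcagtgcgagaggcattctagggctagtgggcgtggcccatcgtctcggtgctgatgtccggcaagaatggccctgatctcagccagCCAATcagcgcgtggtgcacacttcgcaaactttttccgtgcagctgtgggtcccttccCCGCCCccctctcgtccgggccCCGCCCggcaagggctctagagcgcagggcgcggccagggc
The Col17a1 run lies at chr19:47692043-47692292 on the minus strand and holds TATAAA at 2 places and CCAAT at 1. At chr4:126286544-126286793 on the plus strand, the Col8a2 run holds 4 GGGCGG boxes, the last 2 of them sharing letters, and is 70% G and C. The Col24a1 run, at chr3:145292222-145292471 on the plus strand, holds none of these motifs. For Col5a3 the run lies at chr9:20815068-20815317 on the minus strand and holds CCAAT at 1 place and GGGCGG at 2. Over all 38 collagen promoter windows, Col20a1 and Col6a3 included, the Tcf/Lef motif was in 18.4%, against 14.8% of the 32851 windows of all genes. TATAAA was in 13.2% against 12.4%, CCAAT in 34.2% against 33.8%, and GGGCGG in 57.9% against 32.7%. The type IV genes lie in pairs in the RefSeq gene table, with Col4a1 and Col4a2 side by side on chromosome 8 and pointing away from each other, and likewise Col4a6 and Col4a5 on chromosome X.

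The first comparison asks what loss of β-Catenin does to collagen expression in the wound. Both knockdown arrays lay above both controls for Col9a3 and Col24a1, and below them for Col17a1 and Col8a2. For 12 other genes, Col1a2, Col3a1, Col6a1 and Col6a2 among them, 1 knockdown array lay above the controls and 1 below. Both knockdown values were inside the control range for Col4a1 and Col8a1 only, and the remaining 8 genes had 1 inside and 1 outside. Of the 26 genes, 0 had an adjusted p under 0.05 in limma, as for 0% of the 9855 genes tested, and the smallest adjusted p of a collagen gene was 0.976. At an unadjusted p under 0.05 there were 3 collagen genes, Col9a3, Col8a2 and Col24a1, where 4.40% of all genes tested reached it. With a trended and robust variance these counts were 0 and 3, the latter beside 4.13% of all genes. With age, which is also the replicate number, as a block they were 0 and 4, the latter beside 7.57% of all genes and with Col17a1 added. Groups without overlap were seen for 4 of 26 collagen genes, against 33.1% of all genes. The median log2 difference of the family was 0.06, with 15 genes higher in knockdown and 11 lower. Beside it, the median over all genes was 0.01, with 5119 of 9855 higher. At 5 months 22 of the 26 were higher in knockdown, with a median of 0.21, and at 2 months 9 were, with a median of -0.14. Among all 9855 genes, 5562 were higher at 5 months, with a median of 0.04, and 4643 at 2 months, with a median of -0.02. In 11 of the 26 collagen genes the direction was the same at both ages, against 55.3% of all genes. Leaving out the 5-month knockdown array gave the family a median of -0.24, and leaving out the 2-month one gave 0.33. All 10 skeletal muscle markers were lower in knockdown, with a median log2 difference of -1.85, and neutrophil markers averaged 8.88 and 11.25 in knockdown and 8.74 and 9.24 in control wounds. The part of these cells in the collagen values was not tested. With so few arrays the smallest two-sided p of an exact permutation test is 0.333. The labels call the arrays biological replicates, and the p-values measure the spread between them, any effect of age included.

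**Figure D2:**
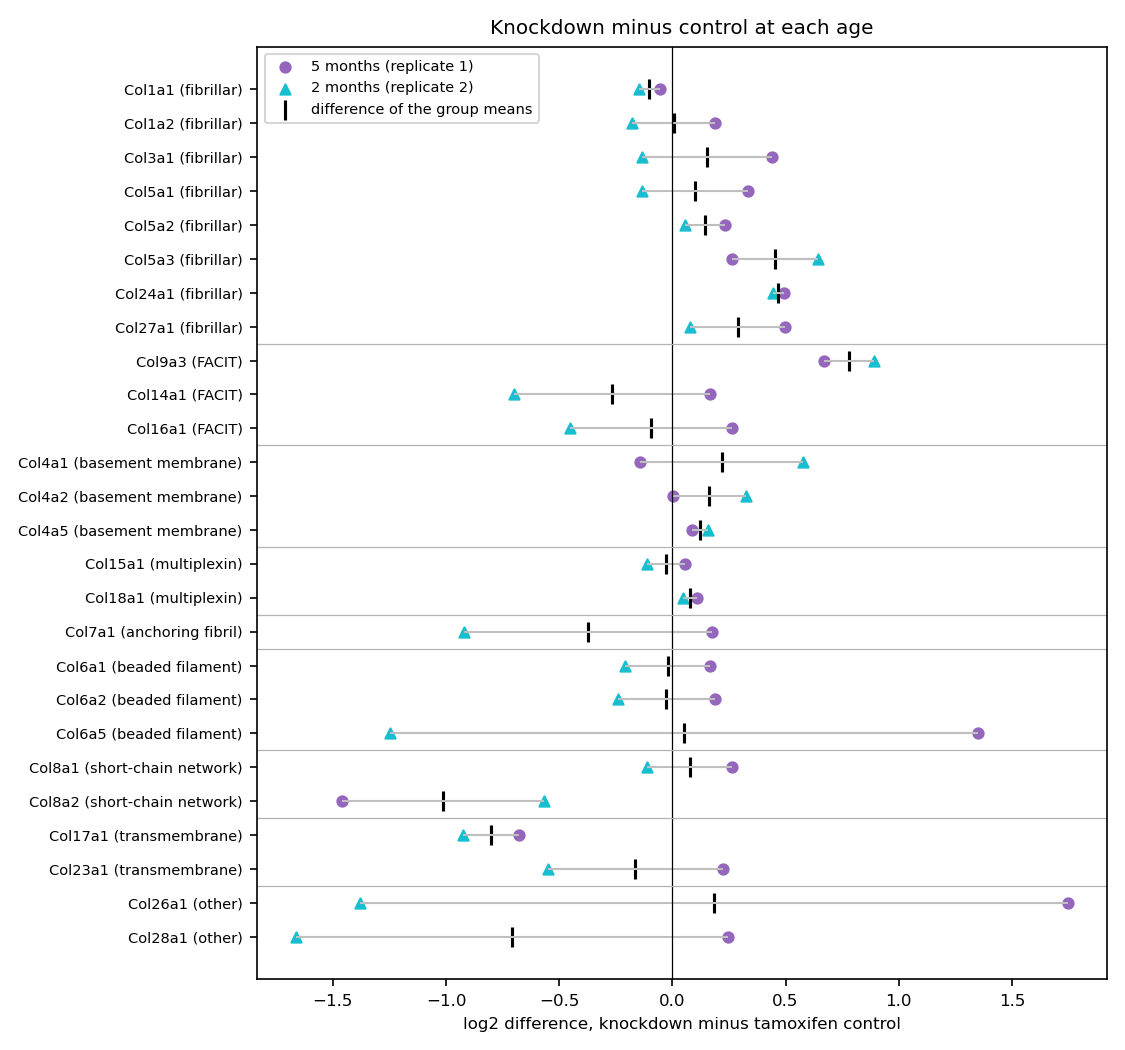
The horizontal axis is the log2 difference of knockdown minus tamoxifen control for the collagen genes in rows, within the pair of arrays at 5 months (circles) and at 2 months (triangles), with the difference of the group means as a bar. Col17a1 and Col8a2 lie left of 0 and Col9a3 and Col24a1 right of 0 at both ages, while 15 of the 26 genes change side between the ages. Col6a5, Col26a1 and Col28a1 were below detection on the 2-month knockdown array.

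Among the fibrillar genes, 7 of 8 were higher in knockdown, by a median log2 difference of 0.15, and Col1a1 was lower. At 5 months 7 of 8 were higher, with a median of 0.30, and at 2 months 4 of 8, with a median of -0.04. Without knockdown replicate 1 the class median was -0.09. Col1a1, a chain of type I collagen, the main fibril of dermis and scar, read 15.54 and 15.25 in knockdown and 15.60 and 15.40 in control wounds, replicate 1 first. Its partner chain gene Col1a2 read 13.66 and 13.21 against 13.47 and 13.39. The groups overlapped for both, with log2 differences of -0.10 and 0.01. Col3a1, the gene of type III collagen of young granulation tissue, read 12.59 and 11.83 against 12.15 and 11.97. Here too the knockdown arrays lay on either side of the controls, with a log2 difference of 0.15 on the brightest probe and 0.20 on the other. Col5a1 and Col5a2, genes of type V collagen, which sets the diameter of type I fibrils, differed by 0.10 and 0.15. The third type V gene, Col5a3, read 8.86 and 8.42 in knockdown and 8.60 and 7.77 in control wounds. That is a log2 difference of 0.45 ± 0.34 (SE), with an adjusted p of 0.976 in limma, and the groups overlapped.

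Col24a1, which encodes a minor fibrillar collagen known from bone, read 8.62 and 8.73 in knockdown and 8.13 and 8.28 in control wounds. Both knockdown arrays lay above both controls, by 0.49 at 5 months and 0.45 at 2 months. The means were 8.67 ± 0.08 and 8.20 ± 0.11 (SD, n = 2 each), a log2 difference of 0.47 ± 0.16 (SE) with a 95% interval of 0.06 to 0.88, unadjusted p = 0.0331 and adjusted p = 0.976 in limma. Its 3 detected probes gave log2 differences from 0.37 to 0.62. Col27a1, of the same minor fibrillar branch and known from cartilage, read 7.95 and 7.26 against 7.46 and 7.18, so its groups overlapped.

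Of the FACIT genes, Col9a3 separated the groups and Col14a1 and Col16a1 did not. Col9a3, a chain of type IX collagen, read 7.35 and 7.52 in knockdown and 6.68 and 6.63 in control wounds. Knockdown was 1.72-fold higher, a log2 difference of 0.78 ± 0.15 (SE) with a 95% interval of 0.37 to 1.19, unadjusted p = 0.00490 and adjusted p = 0.976 in limma. Only 1 of its 3 probes was detected, and the partner genes Col9a1 and Col9a2 were detected on no array. Col14a1, which coats dermal fibrils, read 11.22 and 10.09 against 11.05 and 10.79. Col16a1, found near the junction of dermis and epidermis, read 13.41 and 12.83 against 13.15 and 13.28. For both, knockdown replicate 2 was the lowest and knockdown replicate 1 the highest of the 4 tamoxifen arrays.

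The collagens of the dermal-epidermal junction include Col17a1, Col7a1 and Col23a1. Col17a1 encodes the transmembrane collagen of hemidesmosomes, which tie basal keratinocytes to the basement membrane. It read 11.99 and 12.59 in knockdown and 12.67 and 13.51 in control wounds, 1.74-fold lower in knockdown. Both knockdown arrays lay below both controls, the nearest values being 12.59 and 12.67, and within each age the gap was wider, at -0.68 at 5 months and -0.92 at 2 months. The log2 difference was -0.80 ± 0.37 (SE), with a 95% interval of -1.78 to 0.17 and an adjusted p of 0.976 in limma. All 3 probes ran the same way, with log2 differences from -0.95 to -0.80. The basal keratinocyte markers moved with it: their mean over 8 genes read 10.52 and 10.96 in knockdown and 11.41 and 11.84 in control wounds. All 8 were lower and without overlap, where 33.1% of all genes were without overlap. Their median log2 difference was -0.996, and they ran from -1.57 for Krt15 to only -0.09 for Krt14. Krt5 was at -1.18 and Itgb4, the integrin partner of Col17a1 in hemidesmosomes, at -0.98. The part of these markers' cells in the Col17a1 difference was not tested. In whole-wound RNA, fewer cells of a type and less RNA per cell cannot be told apart.

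Col7a1, the gene of the anchoring fibrils beneath the epidermis, read 12.16 and 11.31 in knockdown and 11.99 and 12.23 in control wounds. Knockdown replicate 2 stood below the other 3 arrays, and the groups overlapped, with a log2 difference of -0.37 ± 0.32 (SE). Its second probe gave -0.41. Col23a1, another transmembrane collagen, read 8.95 and 7.98 against 8.73 and 8.53.

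**Figure D3:**
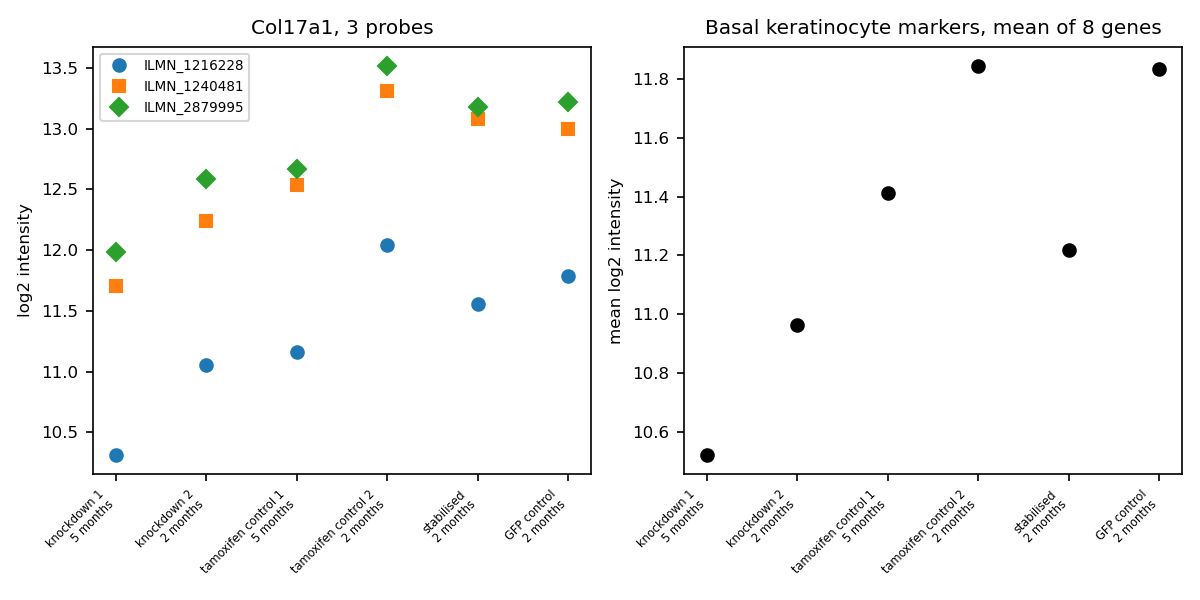
The left panel gives the log2 intensity of the 3 Col17a1 probes and the right panel the mean log2 intensity of 8 basal keratinocyte markers, each on the 6 arrays named below the axis (vertical axes do not start at 0). In both panels the 5-month knockdown array is the lowest and the 2-month tamoxifen control the highest, and the markers read 10.52 and 11.84 there. The GFP control is almost level for the markers, at 11.83. On the stabilised array the markers, at 11.22, lie below the 5-month control, at 11.41, while the Col17a1 probes lie above it.

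The genes of vascular and general basement membranes had small differences between the group means. Col4a1, a chain of the type IV network of nearly all basement membranes, read 12.94 and 12.85 in knockdown and 13.08 and 12.27 in control wounds. Its neighbour and partner chain Col4a2 read 12.27 and 11.91 against 12.27 and 11.58. For this pair the 2-month control was the lowest of the 4 arrays, and the log2 differences were 0.22 and 0.16. Col4a5, whose chain pairs with that of Col4a6 in epidermal basement membrane, read 6.86 and 7.33 against 6.78 and 7.17. The multiplexin genes Col15a1 and Col18a1, which carry endostatin-like ends and lie at the outer face of basement membranes, differed by -0.03 and 0.08. Endothelial markers had a median log2 difference of 0.01, with 5 of 10 higher.

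Col6a1 and Col6a2, chains of the beaded filaments that lie between fibrils and cells, differed by -0.02 and -0.03, and by 0.07 and 0.02 when arrays were scaled by medians alone. On these brightest probes the knockdown arrays lay on either side of the controls, at 15.20 and 14.55 for Col6a1 and at 13.62 and 12.76 for Col6a2. The second Col6a2 probe read 8.62 and 8.45 in knockdown and 8.34 and 8.04 in control wounds, without overlap. Its log2 difference was 0.35, so the Col6a2 probes disagree. The other Col6a1 probes gave 0.03 and 0.19. Col8a1 and Col8a2 encode the short-chain network collagens of vessel walls and of the cornea's inner membrane. Col8a1 read 10.00 and 9.92 in knockdown and 9.74 and 10.03 in control wounds. Col8a2 read 8.26 and 8.57 in knockdown and 9.72 and 9.13 in control wounds, so every knockdown value lay below every control value. Knockdown was 2.02-fold lower, a log2 difference of -1.01 ± 0.26 (SE) with a 95% interval of -1.70 to -0.33, unadjusted p = 0.0133 and adjusted p = 0.976 in limma. Its other probes were detected on 1 of these arrays or none, so they give no second reading. The difference was -1.46 at 5 months and -0.57 at 2 months.

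Col6a5, Col26a1 and Col28a1 stood apart from the rest by their spread between the knockdown arrays. Col28a1, known from the sheaths of peripheral nerve, read 8.26 and 5.70 in knockdown and 8.01 and 7.36 in control wounds. Col26a1 read 8.31 and 5.21 against 6.56 and 6.59, and Col6a5 read 7.67 and 5.16 against 6.32 and 6.41. All of them were below detection on knockdown replicate 2 and highest of the 4 tamoxifen arrays on knockdown replicate 1. Schwann and nerve markers, as the mean of 4 genes, read 9.94 and 8.26 in knockdown and 9.24 and 9.26 in control wounds. Sox10, the defining factor of Schwann cells and melanocytes, read 9.69 and 6.28 against 8.57 and 8.74, and Ngfr 9.98 and 7.17 against 8.34 and 8.43. The other members of that mean did not show this spread to the same extent. Mbp read 8.72 and 8.66 against 8.60 and 8.56, and Pmp22 read 11.36 and 10.92 against 11.46 and 11.31. S100b was detected on no array. The part of nerve tissue in these values was not tested.

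Wounds aged 5 and 2 months can be set side by side in both tamoxifen groups, a description chosen after the values were seen. Of the 26 genes, 15 were higher at 5 months in both groups, where 36.2% of all genes were, and 3 were lower in both, where 23.7% of all genes were. The 15 hold the main fibrillar, beaded filament and multiplexin genes, among them Col1a1, Col1a2, Col3a1, Col6a1, Col6a2, Col15a1 and Col18a1. In the knockdown group the family's median log2 difference of 5 minus 2 months was 0.52, beside 0.07 over all genes, and in the controls it was 0.20 beside 0.03. Col15a1 read 11.87 at 5 months and 10.92 at 2 months in knockdown, and 11.82 and 11.03 in control wounds. Col18a1 read 13.70 and 13.06 in knockdown, and 13.59 and 13.01 in control wounds. For both multiplexins the 5-month arrays lay above the 2-month arrays whatever the genotype. Col17a1, Col24a1 and Col4a5 were the genes lower at 5 months in both groups, Col17a1 by log2 differences of -0.60 in knockdown and -0.85 in controls. For Col24a1 this holds on the brightest probe only. Its other detected probes read 6.35 and 8.22 in the 5-month control, against 6.29 and 8.15 in the 2-month control. Marker levels differed by age too. Fibroblast markers averaged 11.66 and 11.43 in knockdown and 11.59 and 11.27 in control wounds, 5 months first. Endothelial markers averaged 9.99 and 9.79, and 10.20 and 9.51, while basal keratinocyte markers were lower at 5 months, at 10.52 and 10.96, and 11.41 and 11.84. Their part in the age differences was not tested. With 1 array at each age in a group, age and animal cannot be told apart.

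**Figure D4:**
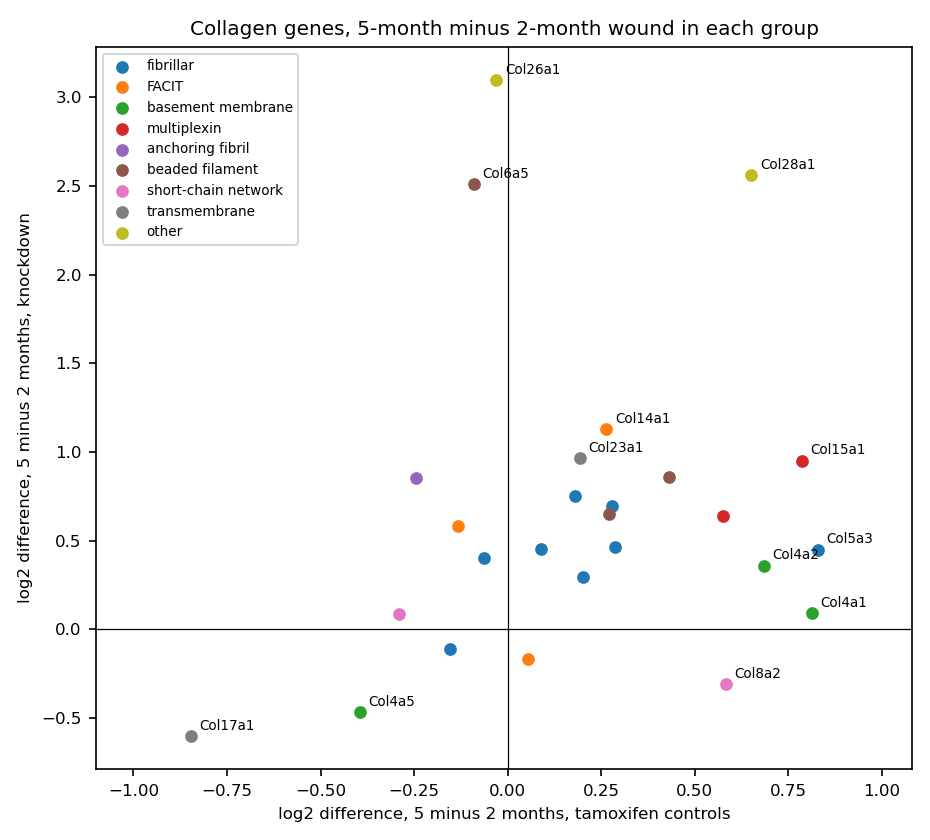
Each point is a collagen gene, coloured by class, with the log2 difference of the 5-month minus the 2-month array in the tamoxifen controls (horizontal) and in knockdown (vertical). The upper right part holds 15 of the 26 genes and the lower left holds Col17a1, Col4a5 and Col24a1.

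The second comparison asks what stabilised β-Catenin does to the same genes, with 1 array a group and so no test and no replicate check. The stabilised array had lower values of both short-chain genes, Col26a1 and Col28a1, and higher values of the type IV, type XV and minor type V chains, while type I collagen was close on both arrays. Of 26 collagen genes, 13 were higher on the stabilised array and 13 lower, where 55.3% of 10002 genes were higher, with a median log2 difference of 0.01 beside 0.05 over all genes. At least 2-fold higher were 2 collagen genes, Col5a3 and Col9a3, against 2.76% of all genes. At least 2-fold lower were 4, Col8a1, Col8a2, Col26a1 and Col28a1, against 4.91% of all genes. Skeletal muscle markers were lower for 8 of 8 genes, with a median of -2.31, and macrophage markers higher for 8 of 8, with a median of 0.88, and their part in the collagen differences was not tested.

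**Figure D5:**
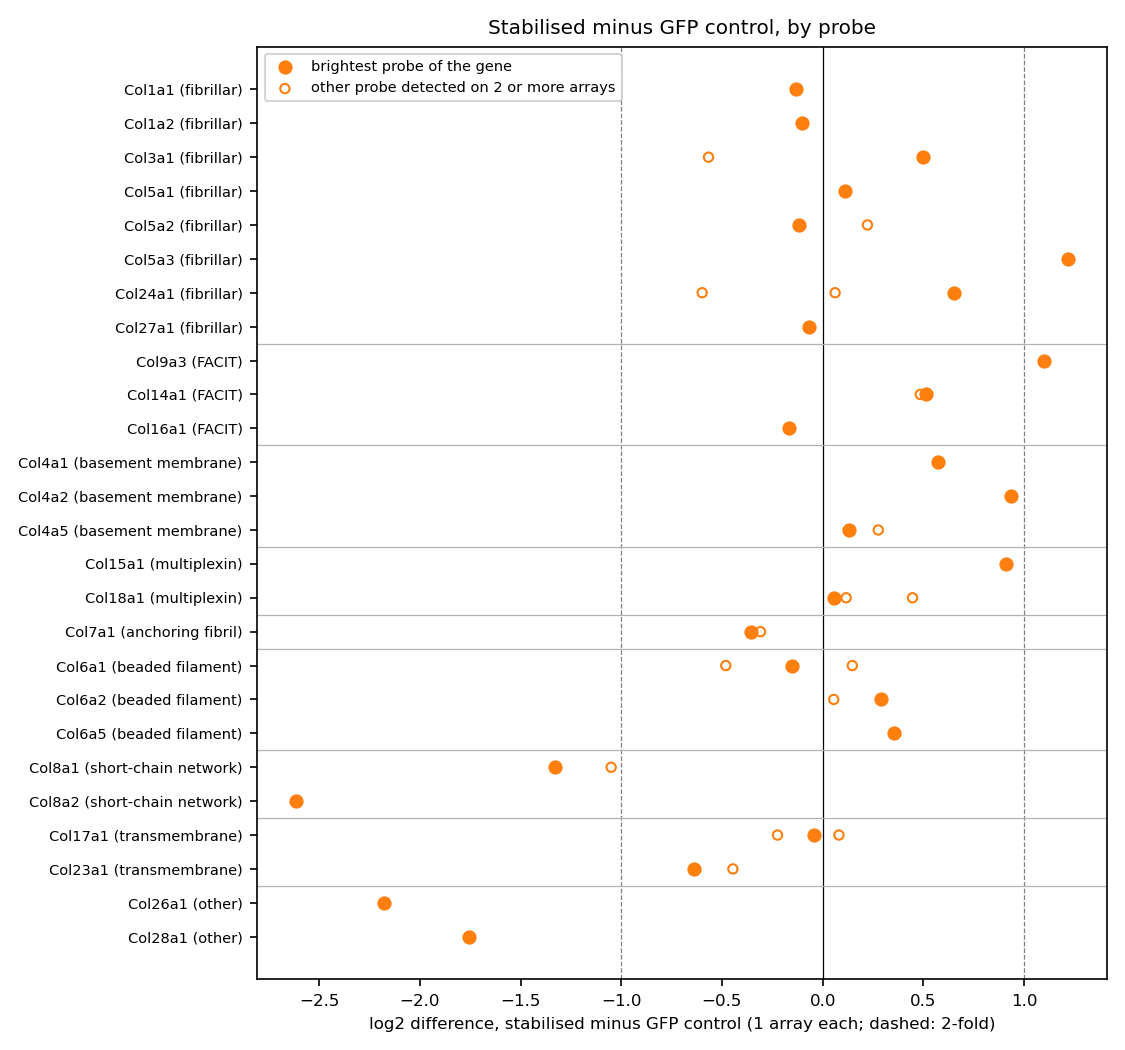
The horizontal axis is the log2 difference of the stabilised minus the GFP control array, filled circles for the brightest probe of each gene and open circles for its other probes that were detected on 2 or more arrays. Col8a2, Col26a1, Col28a1 and Col8a1 lie beyond the 2-fold line on the left, and Col5a3 and Col9a3 beyond it on the right. The probes of Col3a1, Col5a2, Col6a1, Col17a1 and Col24a1 lie on both sides of 0. Col8a2 was below detection on the stabilised array.

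Type I collagen genes read almost alike, Col1a1 15.01 on the stabilised and 15.15 on the GFP control array, and Col1a2 13.14 and 13.25. Col5a3 read 9.82 against 8.60, and the tamoxifen arrays spanned 7.77 to 8.86, so the stabilised array was the highest of the 6. Its partner Col5a1 differed by only 0.11. The 2 detected probes of its other partner, Col5a2, gave -0.12 and 0.22, so Col5a2 is given no direction. The 2 probes of Col3a1 disagreed, with log2 differences of 0.50 and -0.57, so no direction is given for it. Col24a1 differed by 0.65 on its brightest probe and by 0.06 and -0.60 on the 2 other detected probes, so it is given no direction either. Col9a3 read 7.18 against 6.08, the latter just above the lowest detected value of that array, 6.02. Across the 12 genes with at least 2 detected probes, the probes pointed in opposite directions for 5 genes here and for 4 in the knockdown comparison. Here these were Col3a1, Col5a2, Col6a1 (-0.48 to 0.15), Col17a1 and Col24a1. In the knockdown comparison they were Col4a5, Col6a1, Col6a2 and Col8a1.

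All 3 detected type IV genes were higher on the stabilised array, but Col4a5 was lower by median scaling alone. Col4a1 read 13.05 against 12.47 and Col4a2 read 12.52 against 11.58. Col15a1 read 11.48 against 10.56, and Col18a1 13.39 against 13.33. The GFP control was the lowest of the 6 arrays for Col15a1, and for Col4a1 it was second lowest, above control replicate 2. Endothelial markers moved with these genes: of 9 compared, 9 were higher on the stabilised array, with a median log2 difference of 0.36, Tie1 at 1.07 and Tek at 0.81. The mean of the 10 endothelial genes was 10.16 on the stabilised, 9.69 on the GFP control, 10.20 and 9.99 on the 5-month tamoxifen arrays, and 9.51 and 9.79 on the 2-month ones, control first. Their part in the collagen differences was not tested.

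Both short-chain genes were lower on the stabilised array. Col8a1 read 9.27 against 10.60, where the tamoxifen arrays spanned 9.74 to 10.03, so the stabilised array was the lowest and the GFP control the highest of the 6. Its second probe gave a log2 difference of -1.05, against -1.33 for the brightest. Col8a2 was below detection on the stabilised array and read 8.14 on the GFP control, at least 3.60-fold lower. This bound sets the dim array at its lowest detected value. It holds for the deposited values only, since without background correction the measured log2 difference was -1.30. Col26a1 read 6.79 against 8.97 and Col28a1 6.40 against 8.16. Of 4 Schwann and nerve markers 3 were higher on the stabilised array, with a median log2 difference of 0.31, among them Ngfr at 9.63 against 8.94. Sox10 was lower, at 6.56 against 9.12. Their part in the Col28a1 value was not tested.

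Of the junction collagens, Col17a1 was close on the adenovirus arrays. It read 13.18 on the stabilised and 13.22 on the GFP control array, with log2 differences of -0.22 to 0.08 over its 3 probes. Col7a1 read 11.93 against 12.28. Of the 8 basal keratinocyte markers, 3 were higher and 5 lower on the stabilised array, Krt15 at -3.93 and Krt5 at 0.02. Col14a1 differed by 0.51, with its second probe at 0.48, and Col23a1 by -0.64, with its second probe at -0.45.

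The experiments share no array, so their values can be set side by side. Col9a3 was higher on the altered side in both, at 0.78 for knockdown and 1.10 for stabilised, and so was Col5a3, at 0.45 and 1.22. Without control replicate 2 the Col5a3 knockdown difference was 0.0377. Col8a2 was lower in both, at -1.01 for knockdown and by the bound given above for stabilised. Col17a1 was at -0.80 and -0.04. Whether the experiments differ was not tested. Over the 6 arrays the range from the lowest to the highest value had a median of 0.90 log2 for the 26 collagen genes, beside 0.61 for all genes tested. Col1a2 had a range of 0.52. With undetected arrays set at their lowest detected value, the ranges of Col8a2 and Col26a1 were at least 3.42 and 2.92.

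Genes that make, bind or break down collagen were read from lists. Among all genes tested, 5119 of 9855 were higher in knockdown, with a median of 0.01, and 55.3% of 10002 were higher on the stabilised array. Of 22 enzymes and chaperones of collagen synthesis, 20 were higher in knockdown and 0 passed the threshold in limma, with a median log2 difference of 0.18. On the stabilised array 17 of the 22 were higher, with a median of 0.18. Plod2, the lysyl hydroxylase of collagen telopeptides, read 9.37 and 8.84 in knockdown and 8.84 and 8.18 in control wounds, and 10.23 against 9.19 on the stabilised and GFP control arrays. The knockdown arrays lay above the controls, but the nearest values of the groups were both 8.84, and the log2 difference was 0.59. Of 13 genes of propeptide processing and fibril assembly, 9 were higher in knockdown and 0 passed, with a median of 0.07. Fn1, the fibronectin on which collagen fibrils assemble, differed by 0.48 in knockdown, and Tnxb, a tenascin that binds fibrils, by 1.99 on the stabilised array. Among 4 cross-linking enzymes 0 passed and the median was -0.05, with Loxl4 at -0.58.

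Of 7 collagen receptors, 4 were higher and 0 passed. Mrc2, which takes up collagen fragments into cells, read 7.86 and 7.52 in knockdown and 7.07 and 7.11 in control wounds, without overlap. Ddr1, the collagen receptor of epithelia, read 9.74 and 10.02 against 10.39 and 10.62, also without overlap, with a log2 difference of -0.63 in knockdown and of -0.73 on the stabilised array. Of 10 collagen-degrading proteases and inhibitors, 9 were higher in knockdown, by a median of 0.23, and 0 passed. Mmp13, the main fibrillar collagenase of mice, had an adjusted p of 0.665 in limma and a log2 difference of 1.25, with 1.02 on the stabilised array. Mmp9, a gelatinase, differed by 0.45 in knockdown and 1.49 on the stabilised array. Fibroblast markers had a median log2 difference of 0.05 in knockdown and of 0.11 on the stabilised array, with Fbln1 at 0.54 and 0.11 and Pdgfra at 0.07 and 1.22.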

How the data were processed

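Illumina bead arrays read biotin-labelled total RNA of whole wounds, per the labels. For 45281 probes on 6 arrays the authors deposited an intensity (average signal, not normalized) with its detection p-value, per the file headers, and 2 stray lines (0.00442%) were dropped. The authors also deposited log2 values, quantile-equal between arrays, which lie within 0.0874 of limma's neqc (offset 16) on the intensities. The submitters' processing notes name R 2.14, and neither scanner settings nor normalization method were found. These log2 values were used as deposited.

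Names came from the platform annotation, where 34885 probes had 1 symbol, 18 several and 10378 none, and a RefSeq gene table of GRCm38.p6 changed 0. The knockdown comparison kept probes detected (p under 0.01) on 2 or more of its 4 arrays, and took for each gene its brightest probe by the mean of all 6 arrays (9855 genes). Genes were tested with limma 3.58.1 in R 4.3.3 (lmFit, default eBayes, 2 residual degrees of freedom, two-sided, Benjamini-Hochberg over all genes, adjusted p under 0.05), and the step was tested on simulated data. There it recovered 8% of 50 changes of 2-fold and 80% of 50 changes of 4-fold, and it called 11 unchanged genes. The simulated noise was normal and independent between arrays, which the real arrays need not follow. In the data, differences over all genes ran from -4.48 to 4.66 log2 and 0 of 9855 genes passed. The simulated share therefore does not show that a 4-fold change would have been found here. A collagen gene that did not pass may still differ by 2-fold or more. For stabilised against GFP control, genes detected on at least 1 of 2 arrays (10002) were compared by log2 difference, counted from 2-fold. Lists were described by counts and medians, with no set test. A bound on a fold sets an undetected array at the higher of its own value and the array's lowest detected value. The members, the classes, the lists and the rule for named genes were chosen with earlier results of these data known. By that rule all members may be named. Values on single arrays are given mainly for the brightest gene of a class, the 3 largest differences each way and genes whose probes disagree. Not all of these genes are given on every array. No array was a duplicate, since at most 2 raw signals were identical between any pair. Same-numbered replicates of the tamoxifen groups share an age, and the labels do not say whether they also share a litter or day. Over all genes the differences of replicate 1 minus 2 in the groups correlated at 0.126. Of the list symbols, 22 matched no name in the platform annotation given here.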

Additional observations from a re-analysis of the deposited data

Results flagged for a closer look

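The measured difference between knockdown and control changed direction between the 2 ages for 15 of 26 collagen genes, and for 44.5% of all genes. Among the collagen genes, only for Col26a1 and Col6a5 was it at least 2-fold each way, as for 0.213% of all genes. For Col26a1 it was 1.75 at 5 months and -1.38 at 2 months, which are 3.13 apart on the log2 scale. For Col6a5 it was 1.35 and -1.25, which are 2.60 apart. Both genes were below detection on knockdown replicate 2, so these 2-month values are not measured sizes. With that array at its lowest detected value, 6.05, the 2-month differences were -0.54 for Col26a1 and -0.36 for Col6a5. There was 1 pair of arrays at each age, so neither difference was tested.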

How the results depend on the processing

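The count of collagen genes past the threshold was 0 under each alternative run, which included trended and robust variance, all detected probes tested singly and each tamoxifen array left out. With a replicate block, 0 collagen genes passed, the smallest adjusted p was 0.631, and 4 had an unadjusted p under 0.05 beside 7.57% of all genes. Without background correction 1 collagen gene was at least 2-fold higher on the stabilised array in place of 2, Col9a3 being at 0.50, and Col8a2 was at -1.30 in place of -2.62, a value below detection. There was likewise 1 with median scaling alone, Col9a3 being at 0.85. With the mean of detected probes Col24a1 was at 0.0391 on the stabilised array. Median scaling moved the median of all genes on these arrays from 0.05 to -0.10, and 12 of 26 collagen genes were then higher. It turned Col6a1 to 0.0674 and Col6a2 to 0.0161 in knockdown, and the mean of detected probes turned them to 0.0653 and 0.16. With no filter on detection, 7 of 41 collagen genes had groups without overlap, in place of 4 of 26. The share of all genes without overlap was not counted in that run.

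Leaving out 1 tamoxifen array at a time, the family's median in knockdown ran from -0.24 without knockdown replicate 1 to 0.33 without knockdown replicate 2. The count of collagen genes without overlap ran from 8 to 21 of 26, since fewer arrays overlap less often. The share of all genes without overlap was not counted in these runs. Col17a1 stayed between -1.22 and -0.38, Col8a2 between -1.30 and -0.72, Col9a3 between 0.70 and 0.87 and Col24a1 between 0.39 and 0.55. Col5a3 ran from 0.0377 without control replicate 2 to 0.87 without control replicate 1. The direction changed for Col1a1 (-0.25 to 0.0454), Col3a1 (-0.22 to 0.53), Col4a1 (-0.19 to 0.62), Col4a2 (-0.18 to 0.51), Col4a5 (-0.11 to 0.35), Col5a2 (-0.0859 to 0.38) and Col6a1 (-0.34 to 0.30). It also changed for Col6a2 (-0.46 to 0.40), Col7a1 (-0.80 to 0.0540), Col8a1 (-0.0696 to 0.22), Col16a1 (-0.39 to 0.19), Col18a1 (-0.24 to 0.40), Col26a1 (-1.36 to 1.73) and Col28a1 (-1.99 to 0.57). The causes were not tested. Probes near the lowest detected value, such as that of Col9a3, give the least certain differences.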
